A study of Rattus norvegicus with 10 samples.

Results

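Fos, Fosb, Fosl2, Jun, Junb and Jund encode subunits of the transcription factor AP-1, and their transcripts were followed in the prefrontal cortex of 10 inbred rats. All probe sets annotated with exactly 1 of these 6 symbols were taken, which gave 12 probe sets for 6 of the 14217 genes named on the array. The animals were untreated male Lewis rats of 200 to 250 g from Charles River, an inbred strain, taken from 40 rats that went through behaviour tests and were killed by decapitation 6 days after the last test. The tissue was the anterior part of frontal areas Fr1 and Fr2, dissected free of olfactory bulb, with 1 Affymetrix rat expression array per rat and no control or treated group. Every rat came with 4 behaviour scores (locomotion, sugar feeding, startle to a sound and its prepulse inhibition), and 7 rats also had a plus maze score, in units not given in the sources used here, so every comparison below runs across individual rats.

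AP-1 is a dimer of basic leucine zipper proteins. Jun proteins can pair with each other or with Fos proteins, whereas Fos proteins bind DNA as partners of Jun proteins. In neurons, Fos, Fosb and Junb are known as immediate-early genes: they are transcribed within minutes of synaptic activity through calcium and MAP kinase signals, without new protein synthesis, and their mRNA decays soon after. Jund is known for a steady level in many tissues, and Jun responds to activity and also to stress through its kinase JNK.

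In RefSeq's table for rat build GRCr8, the genes lie at chr6:110852188-110855054 (Fos), chr1:88082324-88089506 (Fosb), chr6:30017952-30039269 (Fosl2), chr5:115009900-115012993 (Jun), chr19:40081126-40082910 (Junb) and chr16:18768093-18769771 (Jund). The RefSeq promoter table held windows for 4 of the 6 genes, Fosb, Fosl2, Jund and Junb. They run from 250 bases before to 50 after the start listed there. The Fosb window, chr1:88089135-88089434 on the minus strand, lies inside the Fosb locus above, so it does not cover the bases upstream of that locus. The windows of Junb, whose transcript spanned 3.50-fold between rats, and of Jund, whose transcript spanned 1.38-fold, are shown 5′ to 3′ on the strand of each gene. Junb lies at chr19:40080876-40081175 on the plus strand and Jund at chr16:18769722-18770021 on the minus strand. Capitals mark matches, on either strand, to the cAMP response element TGACGTCA, its core TGACG, or TATAAA.
Junb promoter: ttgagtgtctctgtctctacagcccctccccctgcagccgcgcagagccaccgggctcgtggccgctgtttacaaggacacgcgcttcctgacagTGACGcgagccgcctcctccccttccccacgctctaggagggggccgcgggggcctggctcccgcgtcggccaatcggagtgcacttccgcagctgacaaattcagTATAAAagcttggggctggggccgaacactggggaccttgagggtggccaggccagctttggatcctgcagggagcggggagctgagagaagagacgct
Jund promoter: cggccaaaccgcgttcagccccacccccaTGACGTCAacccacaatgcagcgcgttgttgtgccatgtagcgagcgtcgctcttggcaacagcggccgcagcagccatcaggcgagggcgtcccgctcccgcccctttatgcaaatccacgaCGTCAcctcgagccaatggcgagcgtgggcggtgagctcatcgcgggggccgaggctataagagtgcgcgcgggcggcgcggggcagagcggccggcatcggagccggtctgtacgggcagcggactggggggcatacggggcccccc
The search also covered the AP-1 site TGANTCA, the CArG box that serum response factor binds and the GC box GGGCGG, on both strands; a full cAMP response element holds a core on each strand. Positions are counted from the transcription start, with negative numbers before it. Jund held a full cAMP response element at position -221, an element found in 1.83% of 33469 rat promoter windows of the same length. It also held a further core and 3 GC boxes, which are not capitalised. Junb held 1 core at position -155 and a TATAAA at position -49. Cores occurred in 21.2%, TATAAA in 14.2% and GC boxes in 33.1% of all windows. No AP-1 site or CArG box was found in any of the 4 windows, against 7.33% and 1.64% of all windows. In the Fosb window, which lies inside the gene, the search found a TATAAA on the reverse strand. In Fosl2 it found 2 GC boxes.

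Values are GCRMA expression on a log2 scale, so a difference of 1 is a 2-fold difference. They compare rats within a probe set, not one probe set with another, because probes differ in brightness. The upper 50% of the 31042 probe sets, those with a mean log2 value of at least 3.99, were kept for testing, and 7 of the 12 probe sets of the Fos and Jun genes, covering 5 genes, were among these 15521. Where a gene had several probe sets, the one of highest mean stood for it.

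**Figure D1:**
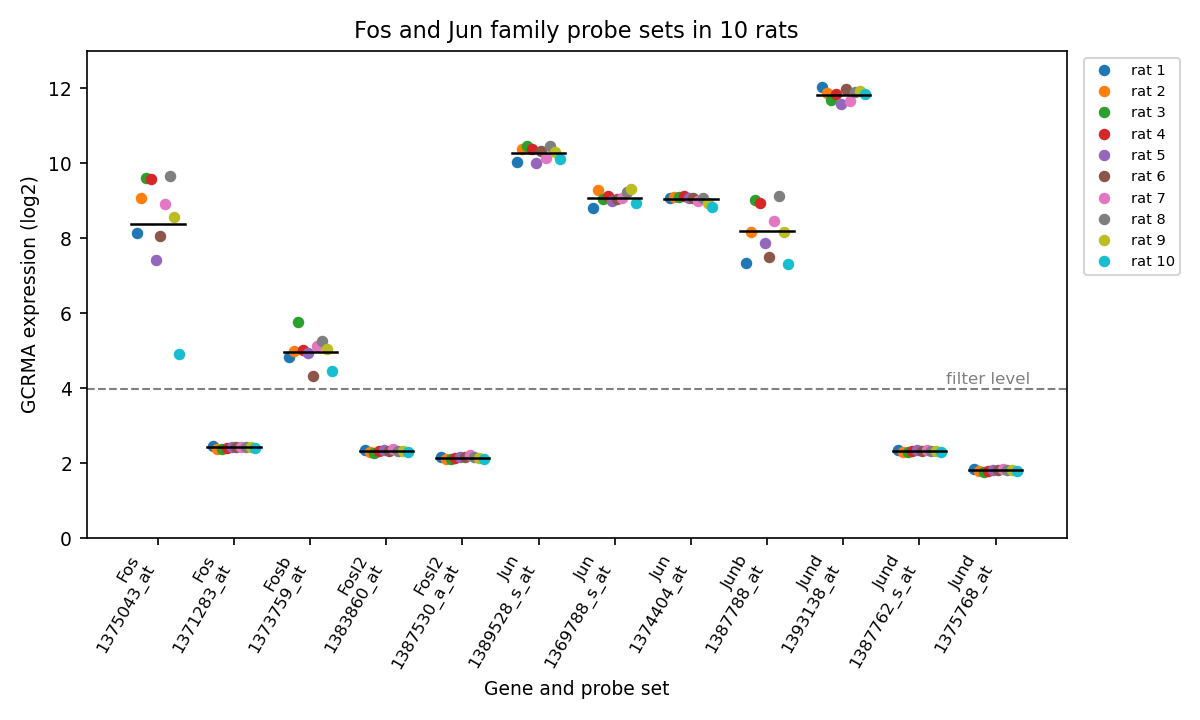
GCRMA expression (log2) of all 12 probe sets of the Fos and Jun genes, each point 1 rat and each bar the mean of 10 rats, with the dashed line at the filter level of 3.99. Fos spread from 4.91 to 9.66 and Junb from 7.31 to 9.11, while the probe sets of Jun and Jund above the line spanned under 0.5.

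Fos, the founding member of the family and the most used marker of recently active neurons, varied more than nearly any other transcript. Its probe set 1375043_at read 8.14, 9.08, 9.60, 9.59, 7.42, 8.06, 8.91, 9.66, 8.56 and 4.91 log2 in rats 1 to 10. Rats 8, 3 and 4 were the highest, rat 5 was low and rat 10 stood far below all others. The mean was 8.39 ± 1.43 log2 (SD, n = 10) and the span 26.9-fold. Without rat 10 the span was 4.73-fold and the SD 0.79, so this animal set much of the spread. The SD over 10 rats exceeded that of 99.95% of the tested probe sets, whose median SD was 0.13. A second Fos probe set, 1371283_at, averaged 2.42 ± 0.02 log2, below the filter level in all rats.

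Junb, a Jun protein that is induced with Fos, differed by up to 3.50-fold between rats. It read 7.34, 8.17, 9.01, 8.93, 7.87, 7.50, 8.46, 9.11, 8.17 and 7.31 log2 in rats 1 to 10, with a mean of 8.19 ± 0.69 (SD, n = 10). Rats 8, 3 and 4 were again the highest, and rats 10, 1 and 6 the lowest. Its SD exceeded that of 98.8% of the tested probe sets.

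Fosb, which also gives rise to the long-lived variant ΔFosB after repeated stimulation, lay closer to the filter level. It read 4.84, 4.98, 5.76, 5.02, 4.94, 4.32, 5.11, 5.27, 5.03 and 4.46 log2 in rats 1 to 10, with a mean of 4.97 ± 0.40 (SD, n = 10) and a span of 2.72-fold. Rats 3 and 8 were the highest and rats 6 and 10 the lowest. Its SD exceeded that of 95.3% of the tested probe sets. The full-length and ΔFosB transcripts were not separated here.

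Jun, the partner through which Fos proteins bind DNA, spanned a narrower range than Fos, Junb and Fosb. Probe set 1389528_s_at read 10.03, 10.37, 10.47, 10.37, 10.02, 10.32, 10.15, 10.47, 10.30 and 10.12 log2 in rats 1 to 10, with a mean of 10.26 ± 0.17 (SD, n = 10) and a span of 1.37-fold. Rats 3 and 8 were the highest, as for Fosb, and rats 5 and 1 the lowest. Its SD exceeded that of 66.8% of the tested probe sets. The other Jun probe sets spanned 1.40-fold (1369788_s_at, mean 9.08 ± 0.15) and 1.22-fold (1374404_at, mean 9.04 ± 0.09). The 3 did not order the rats alike: the first correlated with 1369788_s_at at r = 0.68 (rho 0.53) and with 1374404_at at r = 0.36 (rho 0.66), and the other two with each other at r = 0.08 (rho 0.24), over 10 rats.

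Jund, the Jun protein known for steady expression, spanned a range like that of Jun. Probe set 1393138_at read 12.04, 11.88, 11.68, 11.86, 11.57, 11.99, 11.67, 11.90, 11.91 and 11.83 log2 in rats 1 to 10, with a mean of 11.83 ± 0.15 (SD, n = 10) and a span of 1.38-fold. Rats 1 and 6, which were low in Junb, were the highest here, and rats 5, 7 and 3 the lowest. Its SD exceeded that of 57.0% of the tested probe sets. The other Jund probe sets averaged 2.32 and 1.81 log2, below the filter level.

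Fosl2, which encodes the Fos relative Fra-2, had no probe set above the filter level. Its probe sets 1383860_at and 1387530_a_at averaged 2.33 ± 0.03 and 2.15 ± 0.03 log2 (SD, n = 10). The 5 low probe sets of Fos, Fosl2 and Jund had means of 1.81 to 2.42 and SDs of 0.02 to 0.03, against a median SD of 0.03 over all probe sets below the filter. These 5 also moved with each other: their 10 pairs correlated across rats at r = 0.72 to 0.97, with a median of 0.91, although they belong to 3 genes.

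The arrays were alike in their medians and in their correlation with each other. Array medians lay between 3.91 and 4.02 log2, any pair of arrays correlated at 0.996 to 0.999 over the probe sets, and no arrays were identical. Cortical excitatory markers were measured for 5 of 5 genes with a probe set (Slc17a7 averaged 12.7 and Tbr1 7.57 log2), whereas no olfactory bulb marker (0 of 4) or choroid plexus marker (0 of 5) passed the filter. Markers of striatal projection neurons differed between rats, their mean centred level running from -0.71 log2 in rat 2 to 1.70 in rat 7. That level did not order the rats as Fos did (r = -0.04, permutation p = 0.908, rho = 0.01, p = 1, r = -0.65 without rats 4 and 7). Markers of meninges and fibroblasts also differed, from -0.98 log2 in rat 8 to 1.34 in rat 9. With Fos they had r = 0.17 (permutation p = 0.634) and rho = 0.15 (p = 0.682), or r = -0.04 without rats 3 and 9. The bacterial spike-in level was lowest in rat 10, at 11.2 against 12.1 log2 in rat 2, and rat 10 also had the lowest array median. The spike-in level correlated with Fos at r = 0.54 but at rho = 0.07, and at -0.35 without rats 2 and 10, and its part in the Fos value was not tested. Of 54 pairs of such measures with the 6 genes, the smallest adjusted permutation p was 0.314.

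Among the marker lists, the largest correlations were of Fosb and Jund. The microglia level rests on 3 of 8 genes with a probe set (Csf1r, C1qa and C1qb), the others being below the filter. The astrocyte level rests on 7 of 7 and the endothelial level on 7 of 8. Fosb was lower in rats with a higher microglia marker level (r = -0.72, permutation p = 0.0167, adjusted 0.427; rho = -0.55, p = 0.105) and astrocyte marker level (r = -0.70, permutation p = 0.0248, adjusted 0.427; rho = -0.58, p = 0.0881). Without rats 3 and 6 these r were -0.27 and -0.10. Jund was higher in rats with a higher endothelial marker level (r = 0.67, permutation p = 0.0316, adjusted 0.427; rho = 0.71, p = 0.0273; r = 0.53 without rats 6 and 7). The part of these cell types in the levels of Fosb and Jund was not tested. In bulk tissue, fewer cells of a type and less RNA per cell cannot be told apart.

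**Figure D2:**
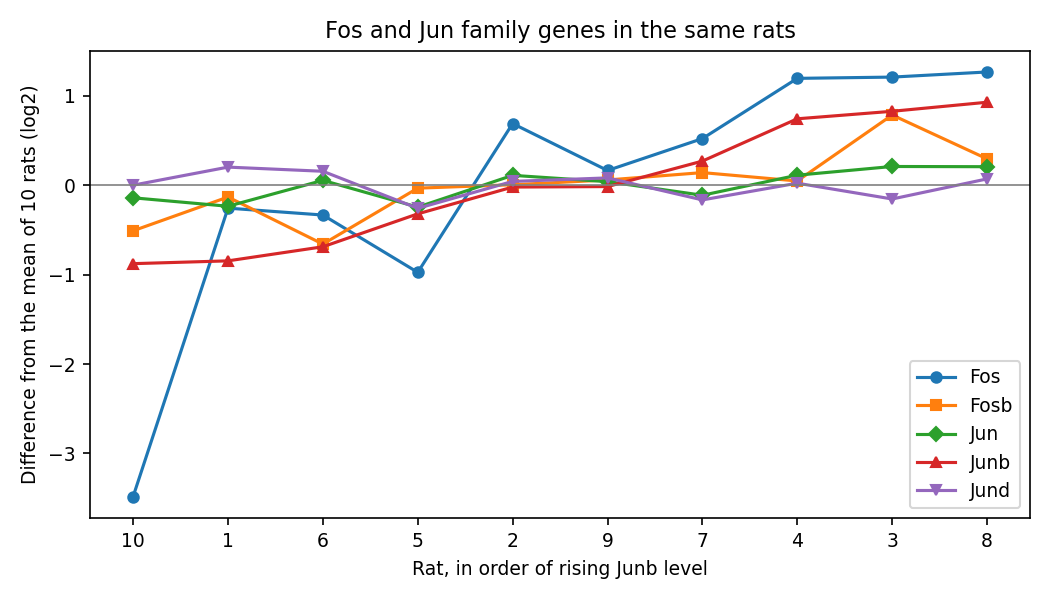
Difference of each gene from its mean over 10 rats (log2), with rats ordered along the axis by Junb. Fos, Fosb and Junb lay below their means in rats 10, 1, 6 and 5 and above them in rats 7, 4, 3 and 8, and Jund stayed within 0.3 of its mean.

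Fos, Fosb, Junb and Jun (probe set 1389528_s_at) were high in the same rats. Fos and Junb correlated at r = 0.79 (permutation p = 0.0006) and rho = 0.92 (p = 0.00057) over 10 rats, and at r = 0.97 without rats 5 and 10, the rats farthest from the median of Fos. Fosb and Junb correlated at r = 0.82 (permutation p = 0.00146) and rho = 0.92 (p = 0.00053), and at r = 0.84 without rats 3 and 6. Fos and Fosb did so at r = 0.68 (permutation p = 0.0398) and rho = 0.83 (p = 0.00449), and at r = 0.77 without rats 5 and 10.

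Jun was compared with the other genes only through probe set 1389528_s_at, and its other probe sets were not compared in this way. Over its narrow range, Jun in this probe set followed Fos and Junb. Its correlation with Fos was r = 0.65 (permutation p = 0.0248) and rho = 0.85 (p = 0.00279), or r = 0.72 without rats 5 and 10. With Junb it was r = 0.74 (permutation p = 0.0195) and rho = 0.77 (p = 0.0125), or r = 0.69 without rats 1 and 5. With Fosb it was r = 0.48 (permutation p = 0.169) and rho = 0.61 (p = 0.0656), or r = 0.56 without rats 3 and 6.

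Jund stood apart from these 4 genes. It correlated with Fos at r = 0.02 (permutation p = 0.964) and rho = 0.02 (p = 0.972), with Junb at r = -0.32 (p = 0.367) and rho = -0.22 (p = 0.535), with Fosb at r = -0.45 (p = 0.195) and rho = -0.32 (p = 0.367), and with Jun at r = 0.16 (p = 0.661) and rho = 0.09 (p = 0.809). Without the 2 rats farthest from the median of Fos, Junb, Fosb and Jun, these r were -0.60, -0.50, -0.06 and 0.16. The 5 pairs with Fosl2 had r from -0.61 (with Jun, permutation p = 0.0637) to 0.02. These permutation values, over 15 pairs, carry no correction. With limma slopes adjusted over all tested probe sets, no pair passed 0.05, and the smallest adjusted p was 0.453, for Junb on the level of Fosb.

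The same fit was used to ask which other transcripts were high in the rats with a high level of each gene. In each case the log2 value of every tested probe set was regressed on the level of the gene, scaled to an SD of 1, with limma and Benjamini-Hochberg adjustment over all tested probe sets.

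Junb was followed past the adjusted threshold of 0.05 by 4 of 15520 probe sets (0.0258%), all positive, while 373 (2.4%) had an unadjusted limma p under 0.05. They were Nr4a1, a nuclear receptor induced by activity, Arc, a protein of the postsynapse that acts in synaptic plasticity, Dusp1, a phosphatase that switches off MAP kinases, and Klf2, a zinc finger transcription factor best known from endothelium. Nr4a1 read a lowest value of 8.78, a median of 9.31 and a highest of 10.70 log2, and changed by 0.69 ± 0.07 log2 per SD of Junb (SE, n = 10 rats, r = 0.95, limma adjusted p = 0.0210). Rats 3, 8 and 4 were the highest, as for Junb.

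Arc read 8.44, 9.50 and 11.18 log2 as lowest, median and highest, a 6.68-fold span, with a slope of 0.88 ± 0.10 (r = 0.95, limma adjusted p = 0.0210). Dusp1 read 8.70, 9.33 and 10.65 log2, with a slope of 0.66 ± 0.08 (r = 0.94, limma adjusted p = 0.0305). In both, rats 3, 8 and 4 again held the top places.

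Klf2 was named after its values were seen, since it is in none of the lists used here. It read 3.03, 4.08 and 6.75 log2 as lowest, median and highest, with a slope of 1.28 ± 0.16 (r = 0.93, limma adjusted p = 0.0313). In rats 1, 5, 6 and 10 it lay between 3.03 and 3.17, below the filter level, and it was highest in rat 8. Its mean of 4.38 passed the filter through the rats in which it was high, which were also high in Junb, so its call and the size of its slope are less certain than those of the other genes.

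These 4 calls rested on the full set of rats. None of the 4 passed when rat 1, 2, 4, 5, 6 or 8 was left out, 2 passed without rat 3 (lowest adjusted p 0.0444), 3 without rat 10, and 4 without rat 7 or 9. The slopes, per SD of Junb in the remaining rats, stayed positive in each of these fits, from 0.59 to 0.74 for Nr4a1, 0.75 to 0.93 for Arc, 0.58 to 0.71 for Dusp1 and 1.07 to 1.39 for Klf2. All 4 passed with arrays centred on their medians, after quantile normalization, and with the striatal marker level as a covariate. The highest adjusted p over these fits was 0.0482, after quantile normalization. None passed without the filter on low values (lowest adjusted p 0.116).

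**Figure D3:**
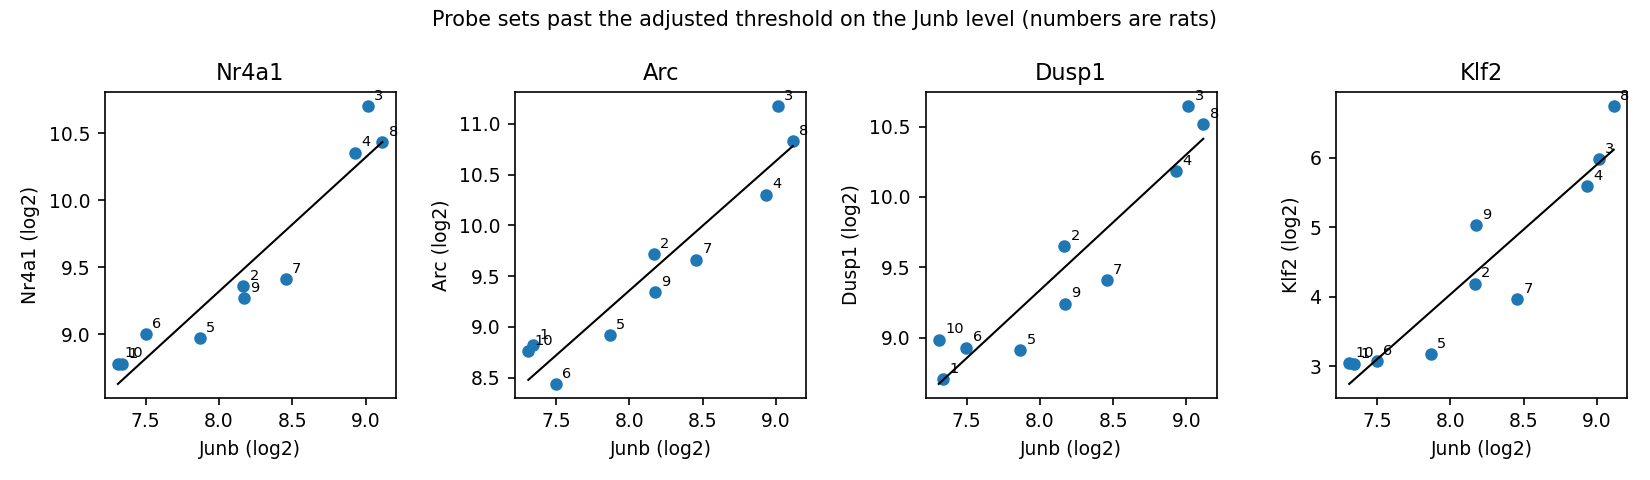
Log2 levels of Nr4a1, Arc, Dusp1 and Klf2 against Junb, each point 1 numbered rat and each line the limma slope. Rats 3, 4 and 8 form the upper end in each panel and rats 1, 6 and 10 the lower end.

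No probe set passed the adjusted threshold on the level of Fos (0 of 15520, 0%), where 427 (2.75%) had an unadjusted limma p under 0.05. The nearest in pattern was Egr4, an activity-induced zinc finger factor, with r = 0.95 and a slope of 0.22 ± 0.03 log2 per SD of Fos (limma adjusted p = 0.270). Next came Mmp24, a membrane-bound metalloproteinase (r = 0.89), Ccar1 (0.89), Fmc1 (0.87), Chka, choline kinase alpha (0.86), and Egr2, a relative of Egr4, with r = 0.86 and a slope of 0.71 ± 0.13 (limma adjusted p = 0.610). The most opposite were Tent4a (r = -0.91), Dxo (-0.91), Lbr, the lamin B receptor (-0.91), and Nup50, a nuclear pore protein (-0.90). Tent4a, Lbr and Nup50 were dim, with means of 4.43, 4.07 and 4.26 log2. Among these most opposite genes the spans between rats ran only from 1.12-fold (Dxo) to 1.23-fold (Nup50). Mmp24 has 2 other tested probe sets, with r of -0.33 and 0.23, and the other Tent4a probe set had r = 0.20, so these patterns were not shared by all probe sets of the gene.

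Rat 10, the lowest in Fos, carried part of these likenesses. Without it r was 0.82 for Egr4, 0.86 for Egr2, 0.78 for Fmc1, 0.63 for Chka, 0.56 for Mmp24 and 0.53 for Ccar1 over 9 rats. For Tent4a, Dxo, Lbr and Nup50 it was -0.64, -0.60, -0.62 and -0.57. Per log2 unit of Fos, Egr4 changed by 0.14 log2 without rat 10 and by 0.15 with it, whereas Mmp24 changed by 0.092 and 0.17 and Ccar1 by 0.024 and 0.051. The change per log2 unit of Fos for Nup50 was -0.020 without and -0.052 with rat 10.

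For the levels of the other genes, fewer partners are named by the selection rule, so their number is not a result. On Fosb, 0 of 15520 probe sets passed (0%) and 1461 (9.41%) had an unadjusted limma p under 0.05; the nearest were Xpc, a DNA repair protein (r = 0.94, limma adjusted p = 0.204), Sesn2 (0.89) and Arc (0.88), and the most opposite Tollip (-0.95) and Ints14 (-0.92). On Jun, 0 passed (0%) and 457 (2.94%) had an unadjusted p under 0.05; the nearest were Dusp6, a phosphatase of ERK kinases (r = 0.93), Larp1b (0.88) and Nfe2l1 (0.87), and the most opposite Epb41 (-0.89) and Lrrc49 (-0.86). Both other tested Dusp6 probe sets had r = 0.81 and 0.89 with Jun, and those of Nfe2l1 0.38 and 0.56. The other probe sets of Larp1b had -0.46 and 0.15, and that of Epb41 0.14, of opposite sign to the one named. On Jund, 0 passed (0%) and 2099 (13.5%) had an unadjusted p under 0.05; the nearest were St3gal2 (r = 0.97, limma adjusted p = 0.124), Irf2 (0.95) and Rbx1 (0.95), and the most opposite Ryk (-0.88) and Nop2 (-0.87). On Junb the most opposite were Washc1 and Tcf4 (both -0.88). The counts at an unadjusted limma p under 0.05 depended on the scaling. On Fosb they split into 266 positive and 1195 negative, and on Jund into 1825 positive and 274 negative. After quantile normalization the splits were 392 and 508 on Fosb and 498 and 510 on Jund.

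On the level of Fosl2, which no probe set measured above the filter, 77 of 15521 probe sets passed (0.496%), 75 of them positive (0.483%). These were mostly dim: 63 of the 77 had a mean under 5 log2, and their median mean was 4.43 against 8.17 log2 over all tested probe sets. The count was 524 with arrays centred on their medians, with 152 positive and 372 negative, and 0 after quantile normalization, where 2228 had an unadjusted limma p under 0.05. The nearest probe sets, those of Prpmp5, Sult2a6 and Elapor2, had r = 0.99, and the most opposite, Sh2d3c and Zdhhc5, r = -0.94 and -0.91. The other Zdhhc5 probe sets had r = -0.47 and 0.83. Fosl2 also moved with the array median (r = 0.79, permutation p = 0.0065, adjusted 0.352 over 54 pairs; rho = 0.82, p = 0.0058, adjusted 0.314; r = 0.77 without 2 rats), whose part in these calls was not tested.

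The immediate-early genes other than the Fos and Jun genes were then read as a list of 43, of which 39 had a probe set and 26 passed the filter. On the level of Fos, 22 of the 26 had a positive slope and 4 a negative one. None passed the adjusted threshold, 12 had a positive slope with an unadjusted limma p under 0.05 (1.28% of all tested probe sets did), and their median r was 0.55 against 0.00 over 8482 genes. On the level of Junb, 23 of 26 slopes were positive and 3 passed (Nr4a1, Arc and Dusp1), with 11 positive at an unadjusted p under 0.05 (0.928% of all tested probe sets) and a median r of 0.40 against -0.11 over all genes. At the unadjusted threshold the whole table split into 144 positive and 229 negative on Junb, 162 and 133 with centred arrays, and 246 and 155 after quantile normalization.

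Egr1, a zinc finger factor often read beside Fos, had a slope of 0.22 ± 0.06 log2 per SD of Fos (r = 0.76) but r = 0.25 with Junb. Its relation to Fos rested on rat 10, the lowest rat for both genes, and without it r was 0.07. Arc, Nr4a1 and Dusp1 had slopes of 0.66 ± 0.20, 0.53 ± 0.15 and 0.49 ± 0.16 on Fos (r = 0.72, 0.73 and 0.69), smaller r than with Junb, a difference that was not tested. Without rat 10 Arc, Nr4a1 and Dusp1 had r = 0.90, 0.89 and 0.92 with Fos. Egr2 and Egr4 had r = 0.75 and 0.66 with Junb. The slower or differently regulated Per1, a clock gene, Homer1, a scaffold of the postsynapse, and Bdnf, a neurotrophin, had r = -0.08, 0.42 and 0.55 with Fos and 0.28, 0.08 and 0.21 with Junb. None of these passed the adjusted threshold on Fos. Npas4, Btg2 and Ier2 had no probe set that was tested.

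On the level of Jun (1389528_s_at), all 26 immediate-early genes had a positive slope, against 50.3% of all genes. Their median r was 0.54, and 12 had an unadjusted limma p under 0.05. Positive slopes at that threshold made up 1.35% of all tested probe sets. The count of positive slopes among the 26 was 24 after quantile normalization and 21 without rat 5. On Fosb 18 of 26 were positive, against 27.2% of all genes, with a median r of 0.33 against -0.21. After quantile normalization 25 of 26 were positive on Fosb, against 49.0% of all genes. On Jund 18 of 26 were positive (14 after quantile normalization, 11 without rat 5), against 68.2% of all genes, with a median r of 0.18 against 0.21. On Fosl2, at background level, 5 of 26 were positive, against 55.4% of all genes, with a median r of -0.33 against 0.05, and 11 of 26 were with centred arrays.

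**Figure D4:**
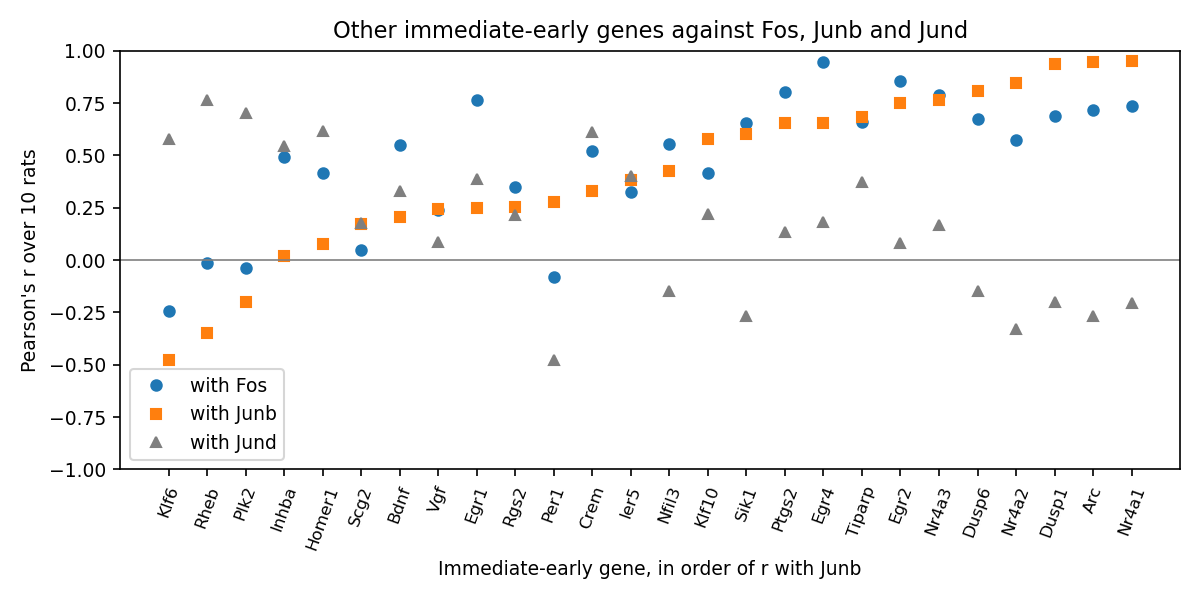
Pearson's r over 10 rats of 26 other immediate-early genes with Fos (circles), Junb (squares) and Jund (triangles), in order of r with Junb. Nr4a1, Arc and Dusp1 lie above 0.9 with Junb, and Egr4 does so with Fos.

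The 3 further lists showed no such lean on the level of Fos. Among related leucine zipper factors, 5 of 10 measured genes had a positive slope; Crem, a cAMP response modulator, had the largest r (0.52), followed by Maf (0.36). Among kinases and regulators upstream of AP-1 it was 12 of 25, with Mrtfa, a coactivator of serum response factor, at r = 0.59 and Men1, whose product menin binds JunD, at -0.51. Among genes described as AP-1 targets it was 7 of 16, with Nqo1 and Gclc, both of the oxidative stress response, at -0.53 and -0.44. Without rat 10 the r of Nqo1, Gclc and Men1 with Fos were -0.04, -0.10 and 0.36. None of these genes had an unadjusted limma p under 0.05 on Fos.

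**Figure D5:**
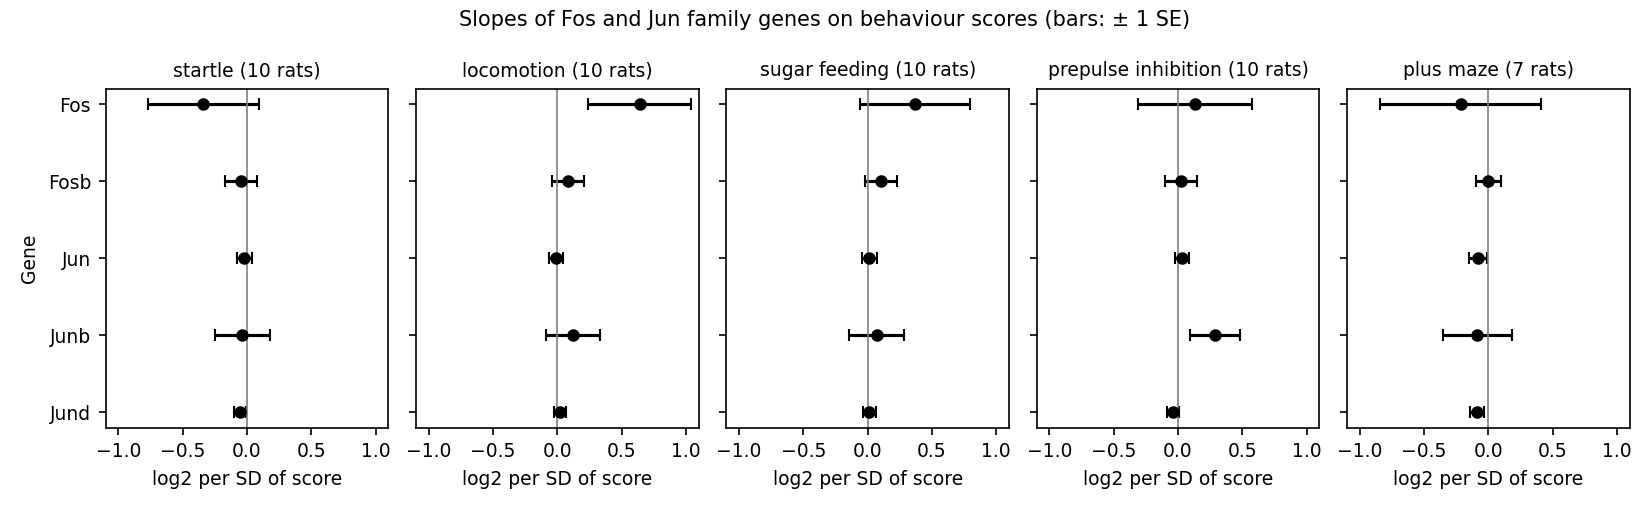
Limma slopes of the 5 measured genes on each behaviour score, in log2 per SD of the score, with bars of 1 SE either side. The bars of Fos were the widest, and every estimate lay within 2 SE of 0.

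Each rat came with behaviour scores, and no transcript passed the adjusted threshold on any of the scores. At an unadjusted limma p under 0.05, the counts were 867 (5.59%) for startle, 455 (2.93%) for locomotion, 330 (2.13%) for sugar feeding, 1150 (7.41%) for prepulse inhibition and 1078 (6.95%) for the plus maze. No probe set of a Fos or Jun gene was among them. The called share was 0% throughout, also with limma's trend and robust options.

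Fos had a slope of 0.64 ± 0.40 log2 per SD of locomotion (SE, n = 10 rats, limma unadjusted p = 0.139, adjusted p = 1.00). Without rat 10 that slope was 0.18 ± 0.25. Its slope was 0.37 ± 0.43 for sugar feeding, 0.13 ± 0.44 for prepulse inhibition, -0.34 ± 0.43 for startle and -0.22 ± 0.62 for the plus maze in 7 rats. With SEs of this size, a slope as large as 0.64 over all 10 rats was not told from 0.

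Junb had its largest slope on prepulse inhibition, the damping of startle by a weak preceding sound, at 0.29 ± 0.19 log2 per SD (limma unadjusted p = 0.168, adjusted p = 0.777). The correlation was r = 0.42 (permutation p = 0.224) and rho = 0.50 (p = 0.144) over 10 rats, and r = 0.08 without rats 1 and 4. Its slopes were 0.12 ± 0.21 on locomotion, 0.07 ± 0.21 on sugar feeding, -0.04 ± 0.21 on startle and -0.09 ± 0.27 on the plus maze.

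Fosb slopes lay between -0.05 ± 0.12 (startle) and 0.10 ± 0.12 (sugar feeding). Jun slopes lay between -0.08 ± 0.07 (plus maze) and 0.03 ± 0.06 (prepulse inhibition), and those of Jund between -0.09 ± 0.05 (plus maze, limma unadjusted p = 0.151) and 0.02 ± 0.05 (locomotion). Another Jun probe set, 1374404_at, had the smallest unadjusted p of all, 0.118, on locomotion, with a slope of 0.05 ± 0.03.

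The immediate-early list showed no call on any score. Its 26 genes split into 4 positive and 22 negative slopes on startle, 24 and 2 on locomotion, 20 and 6 on sugar feeding, 12 and 14 on prepulse inhibition and 3 and 23 on the plus maze. Over all genes 41.3%, 64.7%, 61.4%, 44.2% and 32.6% of slopes were positive.

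These splits depended on the scaling and on single rats. After quantile normalization they were 6 and 20, 23 and 3, 20 and 6, 16 and 10, and 8 and 18 in the same order of scores, and the shares of positive slopes over all genes became 63.5%, 43.0%, 48.7%, 61.9% and 44.5%. Without rat 5 the plus maze split was 24 and 2, the sugar feeding split 13 and 13 and the prepulse inhibition split 19 and 7. Without rat 4 the split on locomotion was 18 and 8 and on prepulse inhibition 7 and 19.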

How the data were processed

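Total RNA from 10 rats was hybridised to Affymetrix rat expression arrays. The deposited values are log2 expression that the authors made with GCRMA in R 2.6.2, per the submitters' processing notes; the GCRMA version and batches are not given in the sources used here. Of 31099 probe sets, 57 controls were left out and 15521 (the upper 50% by mean) tested. Of the 31042 others, 20826 had 1 symbol, 436 several and 9780 none in the platform annotation; 20758 matched RefSeq GRCr8 by gene number. Slopes came from limma 3.58.1 (lmFit, eBayes) in R 4.3.3, tested on simulated data, with Benjamini-Hochberg adjustment. Permutation tests were two-sided with 100000 resamples drawn with numpy 2.4.6, and ranks came from scipy 1.17.1. Each rat is 1 animal; array number limits precision.

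The members and lists were chosen with earlier results of these data known. Members are all reported. Likeness was Pearson's r: 6 highest and 4 lowest for Fos, 3 and 2 for the others, with preset immediate-early genes and the 2 strongest of each other list. Alternatives covered filter, scaling, moderation, the striatal level, probe set choice and each rat left out.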

Additional observations from a re-analysis of the deposited data

Results flagged for a closer look

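Among 52 sets of values tested with Dixon's test for a lone extreme, 4 had one past the 95% critical value, and chance gives about 1 in 20. Fos (1375043_at) read 4.91 log2 in rat 10, with the next lowest rat at 7.42. Egr1 was also lowest in rat 10, at 11.38 log2, against 11.98 in the next rat. Sik1, a kinase induced by cAMP, was highest in rat 3, at 6.58 log2 against 6.28. One plus maze score, 60.3 in rat 5, lay far above the next, 20.2, and without this rat the signs of 26 other immediate-early genes on that score went to 24 positive and 2 negative, against 3 and 23 with it.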

How the results depend on the processing

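No paired analysis was possible because there are no groups and every rat has 1 array. Of 164 counts of calls over 11 fits and alternatives, 140 stayed within 1.5 times the main count and 24, in 4 fits, did not. Most fits had a main count of 0, and a 0 that stayed 0 was taken as kept. The main counts that were not 0, 77 on Fosl2 and 4 on Junb, moved in more alternatives than they stayed. The count on Fosl2 was 13063 without the filter, 524 with centred arrays, 0 after quantile normalization and 25 with the striatal level. On Junb it was 0 without the filter and 0 with ranks of Junb, an alternative chosen after seeing the data; on Jund it was 1 without the filter. With 1 rat left out, counts ran from 0 to 1 on Fosb, 0 to 57 on Fosl2, 0 to 4 on Junb and 0 to 5 on Jund, with fewer samples.

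Of 1250 slopes over 85 results, 1170 kept direction and side of the threshold, 40 changed sign, 38 lost and 2 gained the call. Slopes on the plus maze score were left out of this check. With all rats kept, most sign changes were between values near 0. Quantile normalization changed Jun on startle (to 0.0063), Jund on locomotion (-0.00013), and Jun and Jund on sugar feeding (-0.00025 and -0.0027). The mean of its probe sets changed Jun on locomotion (0.0017) and sugar feeding (-0.0038). Jund on Fos changed with centred arrays (-0.0044) and ranks (-0.00058). Sh2d3c and Zdhhc5 on Fosl2 were not near 0 in the main fit, at -0.082 ± 0.018 and -0.133 ± 0.025 (SE). With centred arrays their slopes turned to 0.020 and 0.0076. With 1 rat left out, slopes (per SD of the remaining rats) crossed 0 on startle for Fosb (-0.084 to 0.023), Jun (-0.074 to 0.00061) and Junb (-0.22 to 0.043), on locomotion for Jun (-0.045 to 0.041), Junb (-0.055 to 0.34) and Jund (-0.020 to 0.037), on sugar feeding for Jun (-0.052 to 0.047), Junb (-0.041 to 0.22) and Jund (-0.059 to 0.044), and on prepulse inhibition for Fos (-0.056 to 0.29), Fosb (-0.017 to 0.10) and Jun (-0.025 to 0.065). They did so on Fos for Jund (-0.021 to 0.021), Per1 (-0.075 to 0.0089) and Men1 (-0.053 to 0.020), on Jun for Jund (-0.028 to 0.069), and on Junb for Egr1 (-0.051 to 0.16), Per1 (-0.0044 to 0.16), Homer1 (-0.014 to 0.030) and Bdnf (-0.0024 to 0.081). The cause was not tested.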
